A study of Mus musculus with 4 samples.

Results

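The genes described here are 10 carriers that move amino acids across the plasma membrane of activated T cells: Slc7a1, Slc7a5, Slc7a6, Slc7a11, Slc3a2, Slc1a4, Slc1a5, Slc38a1, Slc38a2 and Slc6a9. They were picked by gene symbol, as known carriers and with earlier results of these data known, out of 17478 genes listed in at least 1 library, and all 10 were listed in all 4 libraries and passed the filter on low counts. The RNA came from mouse CD4+ T cells. These were taken as naive cells out of lymph nodes and spleen by sorting, stimulated with antibodies to CD3 and CD28, and grown for 3 days in Th9 medium, which favours the helper T cells that make interleukin 9. Donor mice were C57BL/6 of 6 to 8 weeks, with 2 libraries from wild type and 2 from BFAR-/- animals, in which the growth protocol places the loss in T cells. Neither the Cre line nor the deleted exons were known here. All 4 cultures thus shared the strain, the stimulation and the culture time, and differed in Bfar, which encodes a ubiquitin ligase of the endoplasmic reticulum.

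A naive T cell that is activated grows and divides, and for this it takes up far more amino acids from its medium than it did at rest. Slc3a2 encodes the heavy chain of CD98, which carries light chains such as Slc7a5 (LAT1, for leucine and other large neutral amino acids), Slc7a6 (for cationic and neutral amino acids) and Slc7a11 (xCT, which takes up cystine and releases glutamate) to the cell surface. Slc1a5 (ASCT2) and Slc1a4 (ASCT1) exchange small neutral amino acids, such as glutamine for Slc1a5 and serine for Slc1a4. Slc38a1 and Slc38a2 bring in glutamine and alanine with sodium. Slc7a1 (CAT1) brings in arginine and lysine, and Slc6a9 (GLYT1) brings in glycine. Several of these genes are known targets of ATF4, the transcription factor of the amino acid response, and of MYC.

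The sequences around the transcription start are shown because all 10 carriers had less RNA in knockout and because ATF4, MYC and NRF2 are known regulators of such genes. Whether these factors have a part in the falls was not tested. RefSeq promoter windows (GRCm38.p6, 250 bases before to 50 after a start) were at hand for 7 of the 10 carriers, in 11 windows. No window was at hand for Slc7a5, Slc1a5 or Slc38a1, so the counts of matches do not cover them. They were searched on both strands for the core of the amino acid response element bound by ATF4 (TGATGNAA), for the palindromic E-box bound by MYC (CACGTG) and for the core of the antioxidant response element bound by NRF2 (TGACNNNGC). The stretches below run 5′ to 3′ on the strand of the gene, from 90 bases before the start to 30 after, with each match in capitals.
Slc7a11, chr3:50443584-50443703, minus strand: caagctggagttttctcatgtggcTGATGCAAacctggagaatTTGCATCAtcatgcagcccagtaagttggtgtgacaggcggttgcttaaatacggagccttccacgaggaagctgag
Slc1a4, chr11:20332684-20332803, minus strand: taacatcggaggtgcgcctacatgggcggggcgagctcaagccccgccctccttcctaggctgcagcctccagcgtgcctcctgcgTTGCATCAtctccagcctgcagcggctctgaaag
Slc38a2, chr15:96699699-96699818, minus strand: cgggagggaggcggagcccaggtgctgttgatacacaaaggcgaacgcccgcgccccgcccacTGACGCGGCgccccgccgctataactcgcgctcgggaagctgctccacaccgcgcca
Slc7a1, chr5:148399875-148399994, minus strand: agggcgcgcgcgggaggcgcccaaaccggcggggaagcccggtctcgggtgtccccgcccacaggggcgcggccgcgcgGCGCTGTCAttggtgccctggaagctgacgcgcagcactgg

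The Slc7a11 window held the amino acid response core 2 times. These matches began 66 bases before the start on the gene's strand and 47 bases before it on the opposite strand. In the Slc1a4 window, a match on the opposite strand began 4 bases before the start and ran across it. The windows of Slc7a11 and Slc1a4 were the 2 member windows of 11 with this core, which 3.97% of all 32851 promoter windows hold. Slc7a11 and Slc1a4 are also the 2 carriers that did not pass the test between the genotypes (edgeR adjusted p = 0.0827 and 0.0857). The called carriers with a window held no match of this core. The antioxidant core was found in 6 of the 11 windows, against 12.4% of all windows. The 6 belong to 4 genes (Slc38a2, Slc7a1, Slc6a9 and Slc7a6), and the 2 overlapping windows of Slc7a6 share a match. These 6 windows held 60.3% to 76.7% G and C, against a median of 52.7% over all windows. The shares were not adjusted for base composition or for genes with several windows, so no enrichment is read from them. The E-box was in none of the 11 windows and in 7.15% of all windows. These are matches of letters and not binding sites, and a window without a match says only that the letters are not in it.

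The libraries held between 19058009 and 19782923 expected counts, so 3 counts corresponded to 0.151 to 0.158 CPM, counts scaled to a common library total with TMM factors. The labels were checked on Bfar, which had 36.4 and 32.9 CPM in the wild-type libraries and 8.45 and 7.79 CPM in the knockout libraries. The 7 listed markers of CD4 T cells summed to 2118 and 2133 CPM in wild type and 2301 and 2257 CPM in knockout. Of these 7, 5 passed the test, in both directions. Of all tested genes 26.8% were called, and of those averaging 5 CPM or more 31.1%. Cd4, Cd3e, Cd3g and Cd2 were higher in knockout, by 0.20 to 0.23 on the log2 scale, and Cd5 was lower (log2 -0.20, adjusted p = 0.0012), and whether these have a part in the results was not tested. Markers of other cells were low in both genotypes. The 5 B cell markers summed to 5.30 to 5.31 CPM in wild type and 4.42 to 4.77 CPM in knockout, with Pax5 at 0 in both wild-type libraries. Cd8a and Cd8b1 summed to between 10.7 and 11.2 CPM in wild type and to at most 11.6 CPM in knockout, and the 6 listed myeloid markers to 6.12 to 6.26 and 5.69 to 6.43 CPM. The 3 listed erythroid markers stayed at or below 0.685 CPM and the 3 listed natural killer markers at or below 1.21 CPM in every library. Only 2 B cell, 2 CD8 T cell, 2 myeloid and 1 natural killer marker could be tested, and none of them passed the test. No erythroid marker could be tested. No label states that replicates are from different mice. The p-values therefore cover only the spread between these libraries, which may be technical, and any batch shared by a genotype cannot be told apart from the deletion. In bulk RNA, fewer cells of a kind and less RNA per cell cannot be told apart either.

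Each of the 10 carriers had less RNA in both knockout libraries than in both wild-type libraries, and 8 of the 10 passed the test as lower while none was higher (edgeR's quasi-likelihood test with Benjamini-Hochberg adjustment over all 12677 tested genes). Of all tested genes, 13.2% were called lower and 13.6% higher, and of the tested genes averaging 5 CPM or more, a level that all 10 carriers reach, 15.8% were called lower. Both knockout libraries lay below both wild-type libraries in 31.9% of tested genes and in 35.1% of those at this level. The called falls were modest: Slc7a1 fell by 8.07% and Slc6a9 fell by 29.6%, with the others between. The median log2 fold change of the carriers was -0.26, beside -0.002 for all tested genes. Of the 10 carriers, 6 lay below -0.22, the 10th percentile of log2 fold changes in that set of genes. Because of how the carriers were picked, these shares are a description of the list.

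**Figure D1:**
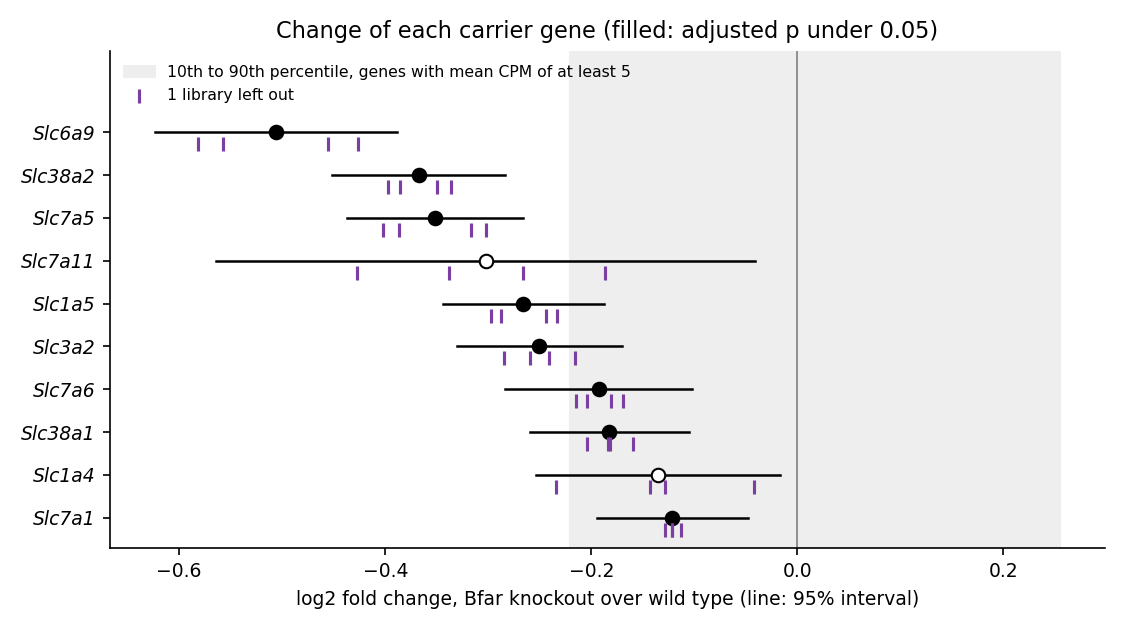
Log2 fold change (knockout over wild type) of each carrier gene from edgeR, with its 95% interval; filled points passed the adjusted threshold of 0.05. Purple marks are the values with 1 library left out, and the grey band spans the 10th to the 90th percentile of genes averaging 5 CPM or more. All 10 points lie left of 0, from -0.51 for Slc6a9 to -0.12 for Slc7a1.

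The CD98 pair fell together. Slc7a5 (gene 20539, chromosome 8, 121881146 to 121907686, GRCm38.p6, minus strand) was the most abundant carrier. It had 990.1 and 943.1 CPM in wild type and 783.9 and 730.9 CPM in knockout. The groups did not overlap, and the gap within each genotype was smaller than the gap between the nearest libraries of the groups. Its mean went from 967 ± 33.2 to 757 ± 37.5 CPM (SD, n = 2), and the log2 fold change was -0.35 ± 0.04 (SE; edgeR adjusted p = 1.53e-05). Slc3a2, the heavy chain (gene 17254, chromosome 19, 8706882 to 8723369, minus strand), had 431.2 and 425.8 CPM in wild type and 368.9 and 351.5 CPM in knockout. The wild-type libraries lay close together and both knockout libraries lay lower. Its log2 fold change was -0.25 ± 0.04 (SE; edgeR adjusted p = 0.000177).

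Of the other CD98 light chains among the carriers described here, Slc7a6 passed the test and Slc7a11 did not. Slc7a6 (gene 330836, chromosome 8, 106168219 to 106198714, plus strand) had 113.8 and 111.9 CPM in wild type and 100.3 and 97.2 CPM in knockout. Its log2 fold change was -0.19 ± 0.04 (SE; edgeR adjusted p = 0.00361), and the adjusted p was 0.069 without knockout replicate 2. Slc7a6os, named for lying on the opposite strand of Slc7a6, had 31.8 and 29.1 CPM in wild type and 27.5 and 27.0 CPM in knockout (log2 -0.16 ± 0.07, adjusted p = 0.117), and no exonic base of Slc7a6 is shared with another gene in GENCODE M21. Slc7a11 (gene 26570, chromosome 3, 50364936 to 50499087, minus strand) was by far the scarcest carrier, with 192.9 and 183.2 expected counts in wild type and 161.2 and 134.2 in knockout, or 9.74, 9.26, 8.34 and 7.06 CPM. The groups did not overlap, yet knockout replicate 2 lay well below knockout replicate 1. Its log2 fold change was -0.30 (95% interval -0.56 to -0.04; edgeR adjusted p = 0.0827), so at this depth a fall of the size seen for Slc7a5 was not told apart from a much smaller one. Without knockout replicate 1 the value was -0.43, and without knockout replicate 2 it was -0.19.

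Of the sodium-coupled pair, Slc38a2 fell more than Slc38a1. Slc38a2 (gene 67760, chromosome 15, 96687392 to 96699728, minus strand), whose RNA and protein are known to rise when amino acids run short, had 266.3 and 259.5 CPM in wild type and 208.2 and 199.4 CPM in knockout. Its RNA fell by 22.5% in a clear step between the genotypes (log2 -0.37 ± 0.04, SE; edgeR adjusted p = 8.11e-06). Its paralogue Slc38a1 (gene 105727, chromosome 15, 96571418 to 96643438, minus strand), which lies close by, had 398.8 and 398.1 CPM in wild type and 356.6 and 345.7 CPM in knockout. The log2 fold change of Slc38a1 was -0.18 ± 0.04 (SE; edgeR adjusted p = 0.00168).

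Slc1a5 (gene 20514, chromosome 7, 16781334 to 16798274, plus strand), the main glutamine exchanger of activated T cells, had 686.4 and 665.5 CPM in wild type and 574.7 and 549.7 CPM in knockout. Its log2 fold change was -0.27 ± 0.04 (SE; edgeR adjusted p = 9.14e-05). Slc1a4 (gene 55963, chromosome 11, 20302180 to 20332713, minus strand), which favours alanine, serine and cysteine, had 93.2 and 94.1 CPM in wild type and 91.0 and 79.6 CPM in knockout. Knockout replicate 1 lay close to the wild-type libraries and knockout replicate 2 lay well below them. The log2 fold change of Slc1a4 was -0.14 (95% interval -0.25 to -0.02; edgeR adjusted p = 0.0857). A single library decided this value, since it was -0.23 (adjusted p = 0.0251) without knockout replicate 1 and -0.04 (adjusted p = 0.605) without knockout replicate 2. With the replicate block, Slc1a4 passed as well (adjusted p = 0.0317).

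Slc7a1 (gene 11987, chromosome 5, 148327410 to 148399904, minus strand), the arginine carrier, had 534.6 and 534.4 CPM in wild type and 494.2 and 488.6 CPM in knockout, so both groups were tight and did not overlap. Its log2 fold change was -0.12 ± 0.03 (SE; edgeR adjusted p = 0.0164). The call rested on having all 4 libraries: the adjusted p lay between 0.0652 and 0.104 when any 1 of them was left out, while the log2 fold change stayed between -0.13 and -0.11.

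Slc6a9 (gene 14664, chromosome 4, 117835258 to 117869305, plus strand), the glycine carrier, had 118.2 and 106.1 CPM in wild type and 81.7 and 76.1 CPM in knockout. The wild-type libraries differed more from each other than for most other carriers, yet both lay far above the knockout libraries. Its log2 fold change was -0.51 ± 0.05 (SE; edgeR adjusted p = 9.5e-06). In RefSeq the last 51 bases of Slc6a9 overlap Ccdc24, a gene on the opposite strand, and in GENCODE M21 longer forms of Ccdc24 cover 27.8% of the exonic bases of Slc6a9. Of the bases of the listed Slc6a9 transcript, 44.7% lie in exons of other genes there. Whether the counting used strand is not known here, so reads of the 2 genes may not be told apart. Ccdc24 itself had between 8 and 12 expected counts in every library, against 1446 to 2342 for Slc6a9.

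**Figure D2:**
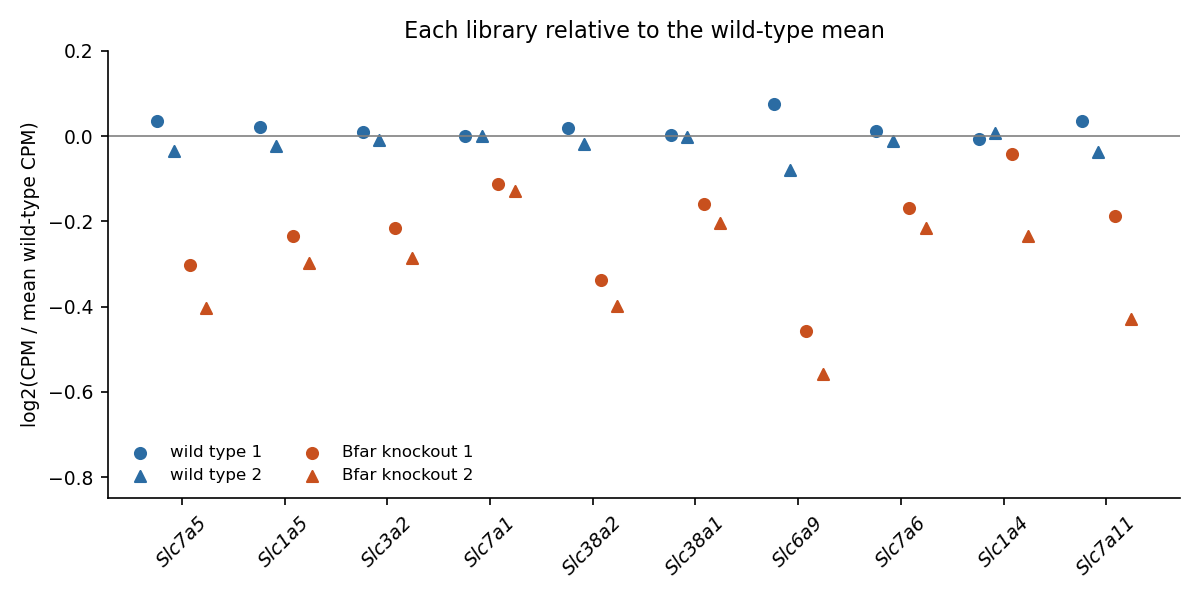
Level of each carrier in each library as log2 of CPM over the mean wild-type CPM (y axis), with circles for replicate 1 and triangles for replicate 2, blue for wild type and orange for Bfar knockout. The knockout points lie below the wild-type points for all 10 genes, and the triangle lies below the circle for all 10 genes in knockout; knockout replicate 1 of Slc1a4 is the closest to its wild-type libraries.

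Within a genotype the 2 libraries give a single comparison, in which the carriers are not replicates, so the counts below only describe direction. Knockout replicate 2 lay below knockout replicate 1 for all 10 carriers, whereas 50.3% of genes averaging 5 CPM or more did so. Wild type replicate 2 lay below wild type replicate 1 for 9 of the 10, Slc1a4 apart, against 48.9% of these genes. In relative size these 9 gaps ran from Slc7a1, at 534.6 and 534.4 CPM, to Slc6a9, at 118.2 and 106.1 CPM. Whether the carriers vary together within a genotype was not tested. For Slc1a4 and Slc7a11, the gap between the knockout libraries was wider than the gap to the nearest wild-type library, and for the other 8 carriers it was narrower. The share of all expected counts taken by the 10 genes ranged from 0.292% to 0.365% over the libraries.

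Levels between genes were compared per length, in the FPKM values that the authors deposited. In wild type the order was Slc7a5 (280.4 and 266.9 FPKM), Slc1a5 (248.3 and 240.6), Slc3a2 (167.1 and 164.9), Slc7a1 (74.0 and 73.9), Slc38a2 (56.9 and 55.4), Slc38a1 (54.5 and 54.4), Slc6a9 (36.0 and 32.3), Slc7a6 (30.3 and 29.8), Slc1a4 (23.6 and 23.8) and Slc7a11 (1.04 and 0.99). Each gene lay above the next in both wild-type libraries. In the knockout the order changed at 2 places. Slc38a1, at 48.6 and 47.0 FPKM, lay above Slc38a2, at 44.3 and 42.4, and Slc7a6, at 26.6 and 25.8 FPKM, lay above Slc6a9, at 24.8 and 23.1. Slc7a5, at 221.3 and 205.9 FPKM, and Slc1a5, at 207.3 and 197.8, were no longer separate in the knockout. Slc7a5, Slc1a5 and Slc3a2 ranked 230, 259 and 413 among the 17478 listed genes by mean FPKM, while Slc7a11 ranked 11032.

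**Figure D3:**
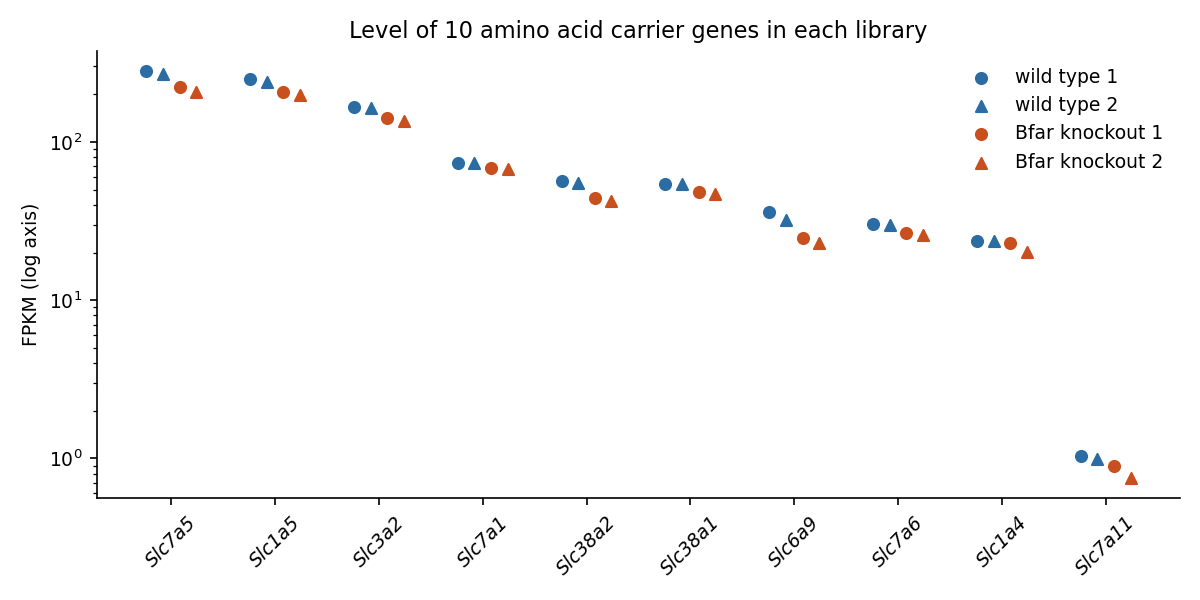
FPKM of each carrier in each library on a log axis, ordered by the wild-type mean. Slc7a5 is highest at 205.9 to 280.4 FPKM and Slc7a11 lowest at 0.75 to 1.04 FPKM.

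The summed FPKM of the 10 carriers was 972 and 943 in wild type and 808 and 766 in knockout, with means of 958 ± 20.7 and 787 ± 29.7 (SD, n = 2). Slc7a5 and Slc1a5 together made up 54.4% and 53.8% of this sum in wild type and 53.1% and 52.7% in knockout. With 2 libraries per genotype a permutation test of such a value cannot reach the threshold, and the ratios below are given without a test.

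Summed over the light chains among the carriers described here, the balance of light to heavy chain RNA of CD98 was lower in the knockout libraries. The ratio of Slc7a5 to Slc3a2 in FPKM was 1.68 and 1.62 in wild type and 1.55 and 1.52 in knockout. The ratio of Slc7a6 to Slc3a2 went the other way, from 0.181 in both wild-type libraries to 0.187 and 0.190 in knockout. The ratio of Slc7a11 to Slc3a2 overlapped between the genotypes (0.00622 and 0.0060 in wild type, 0.00624 and 0.00553 in knockout). These 3 light chains together stood at 1.87 and 1.81 per heavy chain in wild type and at 1.75 and 1.71 in knockout.

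Ratios were also taken between other carriers. Slc7a5 over Slc7a6 was 9.25 and 8.95 in wild type and 8.31 and 7.99 in knockout. Slc7a5 over Slc7a1 was 3.79 and 3.61 in wild type and 3.24 and 3.06 in knockout. Slc38a2 over Slc38a1 was 1.04 and 1.02 in wild type and 0.913 and 0.902 in knockout, so the ratio was lower in knockout. FPKM between genes depends on the assigned lengths, so such near-equal values do not settle which paralogue was in excess. Slc1a5 over Slc1a4 was 10.5 and 10.1 in wild type and 9.03 and 9.87 in knockout. The means of Slc7a5 over Slc1a5 were 1.12 in wild type and 1.05 in knockout, and those of Slc6a9 over Slc1a4 were 1.44 and 1.12. Of the 45 pairs of carriers, 33 had an FPKM ratio that did not overlap between the genotypes, a count that the shared libraries of the pairs make hard to read. Of single tested genes, 63.5% had CPM values that did not overlap, as had 67.1% of those averaging 5 CPM or more. Slc7a5 with Slc38a2, and Slc3a2 with Slc1a5, were among the 12 pairs whose ratio overlapped.

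**Figure D4:**
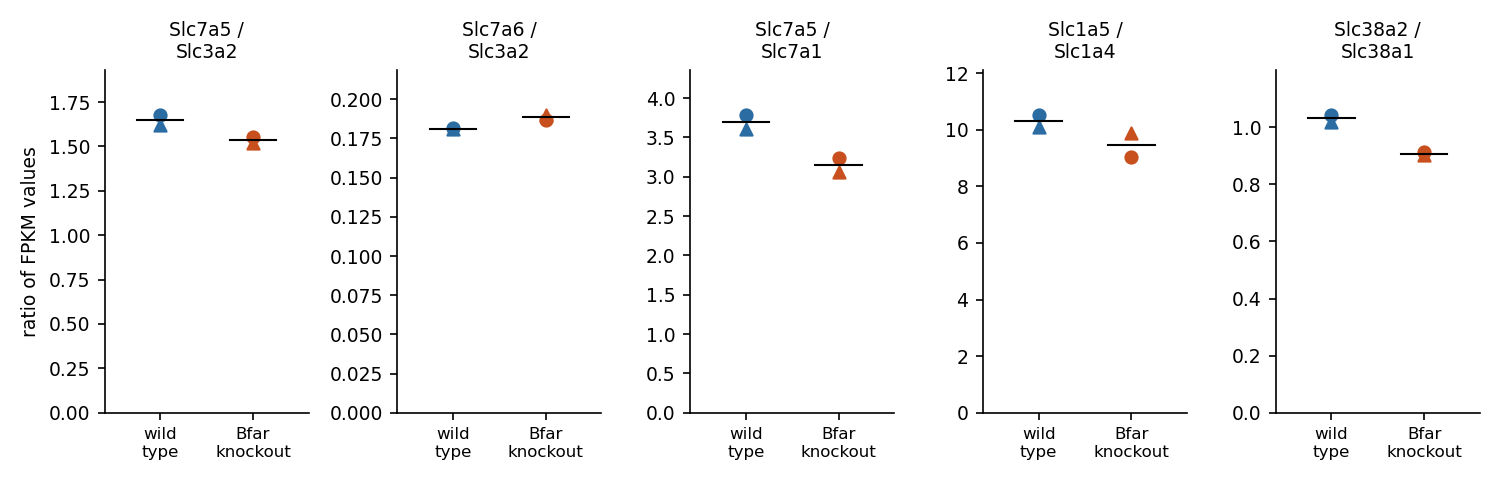
Ratio of FPKM values for 5 pairs of carriers in each library (y axes start at 0; circles are replicate 1, triangles replicate 2, black bars the mean of 2 libraries). The knockout libraries lie below the wild-type libraries for Slc7a5 over Slc3a2, Slc7a5 over Slc7a1, Slc1a5 over Slc1a4 and Slc38a2 over Slc38a1, and above them for Slc7a6 over Slc3a2.

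The lengths that RSEM assigned to the carriers from their mix of isoforms hardly moved. Slc7a1, Slc38a1 and Slc3a2 have several listed transcripts, and their mean lengths were 7141 to 7151, 7237 to 7247 and 2576 to 2577 bases over the 4 libraries, a spread of at most 0.142%. The genotypes overlapped for Slc3a2 and did not for Slc7a1 and Slc38a1. The share of all genes whose lengths do not overlap was not taken, so no change of isoforms is read from this. The other carriers have 1 listed transcript each. The 10 genes lie on 8 chromosomes, with Slc38a1 and Slc38a2 close together on chromosome 15. Apart from Slc6a9, no carrier shared more than 6.94% of its 31-base words with other genes in GENCODE M21.

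The profile of the CD98 pair (the mean of Slc7a5 and Slc3a2 on the log2 CPM scale, centred over the 4 libraries) was compared with 9883 other genes averaging 5 CPM or more. The 5 nearest by Euclidean distance, from 0.018 to 0.024, were Engase, Phgdh, Pqlc2, Srsf6 and Rasal3. Phgdh, the first enzyme of serine synthesis, had 684.5 and 668.7 CPM in wild type and 557.2 and 534.4 CPM in knockout (log2 -0.31, edgeR adjusted p = 1.96e-05). Pqlc2, a lysosomal exporter of cationic amino acids now named Slc66a1, had 10.1 and 9.82 CPM in wild type and 8.40 and 8.00 CPM in knockout (log2 -0.28, adjusted p = 0.0764). Distance over 4 libraries is a weak measure, and many genes share a fall in knockout.

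The other amino acid carriers held calls in both directions, at shares near those of all tested genes. Of 46 written down, 36 were listed and 25 tested, of which 4 were called lower and 4 higher, with a median log2 fold change of -0.01, beside 13.2% lower and 13.6% higher of all tested genes. Slc16a10 (TAT1, for aromatic amino acids) fell from 36.1 ± 0.534 to 26.8 ± 0.365 CPM (SD, n = 2; log2 -0.43, edgeR adjusted p = 0.000201). Slc7a3 (CAT3), a cationic carrier of the same family as Slc7a1, fell from 95.8 ± 0.695 to 80.1 ± 4.31 CPM (log2 -0.26, adjusted p = 0.000961). Slc15a4, a lysosomal peptide and histidine carrier, fell by 0.26 and Slc6a6, the taurine carrier, by 0.11 on the log2 scale (adjusted p = 0.0312 and 0.0407). Slc43a2 (LAT4), which lets large neutral amino acids out of or into the cell without exchange, rose from 73.7 ± 0.829 to 91.3 ± 0.322 CPM (log2 0.31, adjusted p = 0.000121). Slc38a6 rose from 7.43 ± 0.873 to 12.6 ± 0.154 CPM (log2 0.77), Slc7a2 (CAT2) by 0.29 and Slc36a4 by 0.31 (adjusted p = 0.000193, 0.0279 and 0.0368). Slc7a2, Slc15a4, Slc36a4 and Slc6a6 each lost their call without at least 1 of the libraries. No test compares this list with the 10 carriers.

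**Figure D5:**
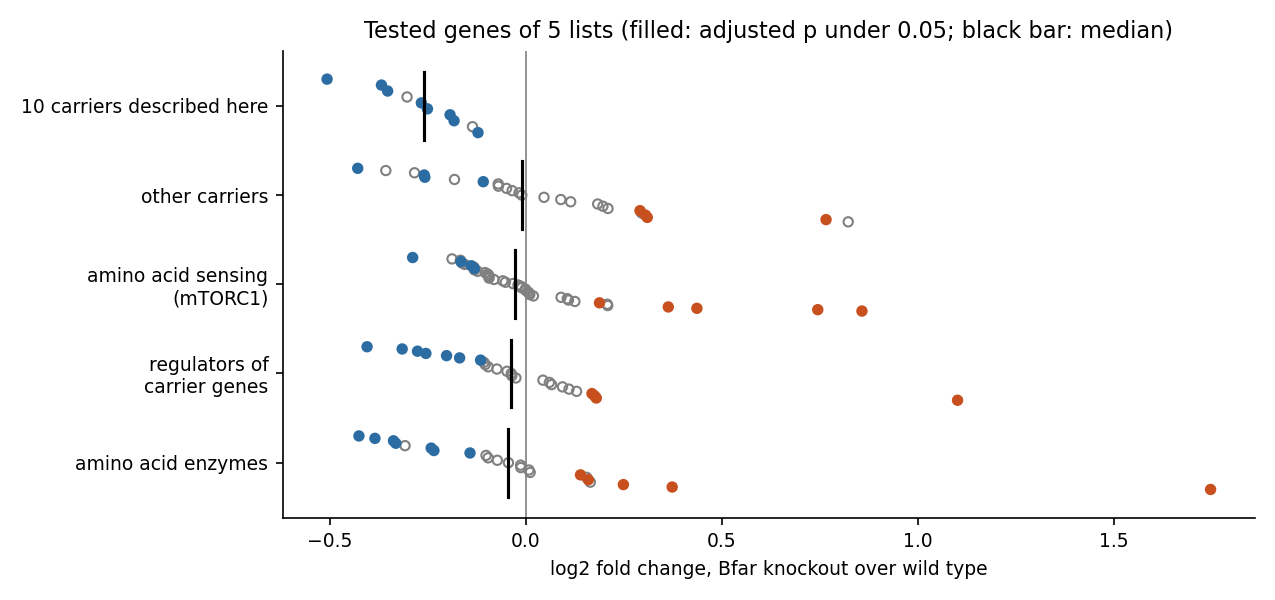
Log2 fold change (knockout over wild type, x axis) of every tested gene of 5 lists, 1 row a list; filled points passed the adjusted threshold of 0.05 (blue lower, orange higher), open points did not, and black bars are medians. The 10 carriers described here all lie below 0 with a median of -0.26, while the medians of the other lists lie between -0.04 and -0.01.

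Genes that report amino acid supply to the growth kinase mTORC1, which the carriers feed with leucine and arginine, held calls in both directions, at shares close to those of all tested genes. Of 40 tested, 4 were called lower and 5 higher, beside 13.2% and 13.6% of all tested genes, and the median log2 fold change was -0.03. Mtor itself had 118 ± 0.476 CPM in wild type and 117 ± 6.78 CPM in knockout (SD, n = 2; adjusted p = 0.995). Sesn3, of the sestrins that hold mTORC1 back, rose from 43.4 ± 0.875 to 78.7 ± 3.98 CPM (SD, n = 2; log2 0.86, edgeR adjusted p = 2.86e-08). Gatsl3, now named Castor1 and the arginine sensor of the pathway, rose from 19.9 ± 1.93 to 33.4 ± 4.36 CPM (log2 0.75, adjusted p = 4.42e-05). Fnip1, the partner of folliculin, rose by 0.36, B630005N14Rik, now named Bmt2 and the S-adenosylmethionine sensor, by 0.44, and Tsc1 by 0.19. Sesn2, the leucine sensor and an ATF4 target, fell from 128 ± 4.74 to 104 ± 6.92 CPM (log2 -0.29, adjusted p = 0.000564), and the leucyl-tRNA synthetase gene Lars fell by 0.14, Tfe3 by 0.16 and Tsc2 by 0.13. B630005N14Rik, Lars, Tfe3, Tsc1 and Tsc2 lost their call without at least 1 of the libraries.

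Of 25 known regulators of carrier genes, 7 were called lower and 4 higher, beside 13.2% and 13.6% of all tested genes, with a median log2 fold change of -0.04. Atf4 had 643.5 and 635.3 CPM in wild type and 550.8 and 505.5 CPM in knockout (log2 -0.28 ± 0.04, SE; edgeR adjusted p = 0.000168), and Trib3, a target and inhibitor of ATF4, fell by 0.40 ± 0.06. Trp53 fell by 0.20 ± 0.04. Myc, whose product induces several carriers in activated T cells, had 547.3 and 538.8 CPM in wild type and 527.8 and 523.1 CPM in knockout, and did not pass (log2 -0.05 ± 0.03, adjusted p = 0.338). Nfe2l2, which encodes NRF2, a regulator of Slc7a11, did not pass either (log2 0.11 ± 0.07, adjusted p = 0.238). The other called genes were Eif2s1, Cebpb, Atf5 and Ppp1r15b, which were lower, and Mycn, Atf3, Kdm4c and Ppp1r15a, which were higher, and each of these 8 lost its call without at least 1 of the libraries. Mycn stayed at or below 2.90 CPM. Whether any regulator has a part in the falls of the carriers was not tested.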

How the data were processed

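Per the labels' protocols, the sequencer was an Illumina HiSeq. The submitters' processing notes name Bowtie, RSEM and the build GRCm38 (mm10) and give no versions. Per the file headers, the authors' tables, 1 per library, give for each gene an expected count (multi-mapping reads are shared out, so it need not be whole), an FPKM value and a length. Strand setting and annotation release were not known here.

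A gene missing from a table was set to 0. Expected counts were rounded and tested with edgeR 4.0.16 in R 4.3.3 (quasi-likelihood, two-sided, TMM, filterByExpr with a minimum count of 10 and total of 15, Benjamini-Hochberg over 12677 genes at 0.05). CPM uses TMM-scaled library sizes; the standard error is the absolute log2 fold change over the square root of F. The biological coefficient of variation was 2.89%. Alternatives used DESeq2 1.42.0, limma 3.58.1, other scalings and filters, the replicate number as block, and each library left out. Simulated data were run only through the main edgeR fit, DESeq2, limma-voom and limma on log2(CPM + 1). The other scalings and filters, the block, the fits with a library left out and limma on FPKM were not tested on them.

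The level of 5 CPM used for background shares was chosen after the data were seen. The carriers and lists were chosen with earlier results of these data known. Genes named are the 10 carriers, in each list up to 6 called genes of lowest adjusted p, the 5 genes nearest to the CD98 pair and Bfar; Slc36a4, Slc6a6, Tsc1, Tfe3, Tsc2, Mtor, Myc, Nfe2l2, Cebpb, Atf5, Ppp1r15b, Kdm4c, Ppp1r15a, Asns, Bcat1, Got2, Ass1, Got1, Gls2, Odc1, Ccdc24 and Slc7a6os were named after their values were seen. Older symbols were matched through the RefSeq gene table of GRCm38.p6, which also gave coordinates; promoter sequences are RefSeq's. Words of 31 bases were compared among GENCODE M21 transcripts on both strands.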

Additional observations from a re-analysis of the deposited data

How the results depend on the processing

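All 10 carriers stayed lower under all 14 alternatives, and of 140 such values 126 stayed on their side of the threshold, 12 lost and 2 gained a call. The 8 called carriers were the same with other scalings, no filter, DESeq2, limma-voom and filtered FPKM. With limma on log2(FPKM + 1) over all listed genes, 1 carrier (Slc38a2) was called, and the other 7 had adjusted p of 0.0547 to 0.0656; the counts there were 451 for all genes, 0 for other carriers, 1 for sensing genes, 1 for regulators and 4 for enzymes. Leaving out a library gave 6 to 8 called carriers and 0 called higher, with 1441 to 2355 genes in all, 4 to 5 other carriers, 5 to 8 sensing genes, 4 to 7 regulators and 9 to 10 enzymes; the fewest came without knockout replicate 2 for carriers, all genes and regulators. The main counts were 3398, 8, 9, 11 and 12 for genes, other carriers, sensing genes, regulators and enzymes. No filter gave 1928 genes, 4 other carriers and 6 regulators, and DESeq2 gave 1707, 4 and 4. Filtered log2(FPKM + 1) gave 4 other carriers and 7 regulators, and log2(FPKM + 0.1) gave 5 and 7. The cause was not tested. The replicate numbers give only 2 pairs and no label says what they share; deviations of same-numbered libraries correlated at 0.0952 over 9893 genes. With the replicate block 3952 genes and 9 carriers were called. Slc7a11, with 134 to 193 counts a library, had the widest interval of the carriers.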

Other observations

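Enzymes that use the carried amino acids also went both ways, with 7 of 23 tested called lower and 5 higher (median log2 fold change -0.04), beside 13.2% and 13.6% of all tested genes. The enzymes of serine and glycine interconversion fell: Shmt2, of mitochondria, from 717 ± 1.47 to 550 ± 0.949 CPM (SD, n = 2; log2 -0.38 ± 0.03, SE; edgeR adjusted p = 1.13e-06), and Shmt1, of the cytosol, by 0.33 ± 0.05. Gpt2, which passes nitrogen between glutamate and alanine, fell by 0.42 ± 0.05, and Mat2a, which turns methionine into S-adenosylmethionine, by 0.34 ± 0.04. Asns, the asparagine synthetase gene, fell by 0.24, Bcat1, of branched-chain amino acid transamination, by 0.23 and Got2 by 0.14. Glud1, the mitochondrial glutamate dehydrogenase, rose from 295 ± 2.22 to 383 ± 6.24 CPM (log2 0.37 ± 0.04). Nos2, which makes nitric oxide from arginine, rose from 0.859 ± 0.0017 to 2.90 ± 0.152 CPM (adjusted p = 0.000167), a low level in both genotypes. Ass1 rose by 0.14, Got1 by 0.16 and Gls2, a glutaminase gene, by 0.25; these 3 and Got2 lost their call without at least 1 of the libraries. Odc1, of polyamine synthesis, had log2 0.01 ± 0.04 (adjusted p = 0.912) and did not pass the test.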
